A study of Mus musculus with 2 samples.

Results

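In the tendons of Tgfbr2;ScxCre mutant pups, 431 of the 2592 cells of the mutant library carried little or no Scx RNA and yet at least 3 UMIs of tenomodulin (Tnmd), and these Scx-low Tnmd-positive cells are described here. They made up 16.6% of that library (exact Clopper-Pearson 95% interval 15.2 to 18.1) and were drawn from 4956 cells in both libraries of the study. A UMI is a molecular tag that counts 1 captured RNA molecule once. The cells were selected on measured values, by fewer than 30 Scx UMIs per 10000 UMIs of the cell and at least 3 Tnmd UMIs, after removal of cells with 2 or more Pi16 UMIs, 5 or more immune UMIs (Tyrobp, Fcer1g, Laptm5, Ptprc), 4 or more cell cycle UMIs (Mki67, Top2a, Cdk1, Birc5) or 10% or more haemoglobin RNA. Under the same limits the mutant library held 202 Scx-high cells (30 or more Scx UMIs per 10000), 927 Scx-low cells with 0 Tnmd UMIs and 420 Scx-low cells with 1 or 2.

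Tendon cells were released by enzyme from forelimb and hindlimb tendons of pups at P7, and each library was a pool of 2 pups. By the study's methods, the scraping that removes cells of the tendon surface (epitenon and paratenon) was left out for these samples. In the mutants the type II TGFβ receptor gene was deleted by a Cre expressed from Scx regulatory sequence, with 1 floxed and 1 null allele (Tgfbr2 f/-) by the study's text. Loss of the floxed allele is thus limited to cells in which that Cre had been active, while the null allele is carried by every cell. The control library is titled wild-type, while a further label of it reads Het, and the sources used here do not settle which it was. Mice of the study carried the ScxGFP reporter, in which Scx sequence drives a fluorescent protein, and the Cre reporter RosaT, and the methods describe no sort of these cells on either. With 1 library per genotype, the genotype and the library cannot be told apart, no difference between libraries was tested, and 95% intervals cover counting error only. The mutant library held 8250248 UMIs (median 2828 per cell) and the control library 9451606 UMIs in 2364 cells (median 3866.5), and the 2 libraries shared 2 cell barcodes, 1 of them among the 431 cells.

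Tenocytes are the fibroblasts of tendon, which build and maintain a matrix of parallel type I collagen fibres. Scx encodes scleraxis, a basic helix-loop-helix transcription factor that marks tendon progenitors and tenocytes, and Tnmd encodes a membrane glycoprotein that appears as tenocytes mature and is widely used as their marker. TGFβ signaling is known to induce and maintain Scx in the limb, and loose connective tissue around tendon holds a further fibroblast population rich in Cd34, Ly6a and Dpt.

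Levels are given as CPM, the UMIs of a gene per 1000000 UMIs summed over the cells of a group. Because the groups were defined by Scx and Tnmd, every difference between them is a description of cells chosen by these genes and was not tested. Scx itself stood at 329 CPM in the Scx-low Tnmd-positive cells, 29055 in the Scx-high cells and 119 in the Tnmd-negative Scx-low cells. No Scx UMI at all was found in 268 of the 431 cells (62.2%), and the highest cell had 22. Tnmd stood at 3414 CPM, against 5562 in the Scx-high cells. The cells held between 3 and 138 Tnmd UMIs, with a median of 6, and 194 of the 431 held 3 to 5. As a measure of free RNA, 4.32% of the immune-rich cells of the library, which should lack Tnmd, had any Tnmd UMI and 2.16% had 3 or more, at a median depth of 1703 UMIs against 3218. Scx was found in 12.97% of the immune-rich cells and in 37.8% of the 431 cells. RNA from the ScxGFP reporter was counted as Scx, by the study's account. How much came from the endogenous gene is thus unknown, for the levels given here and for the Scx limit.

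**Figure D1:**
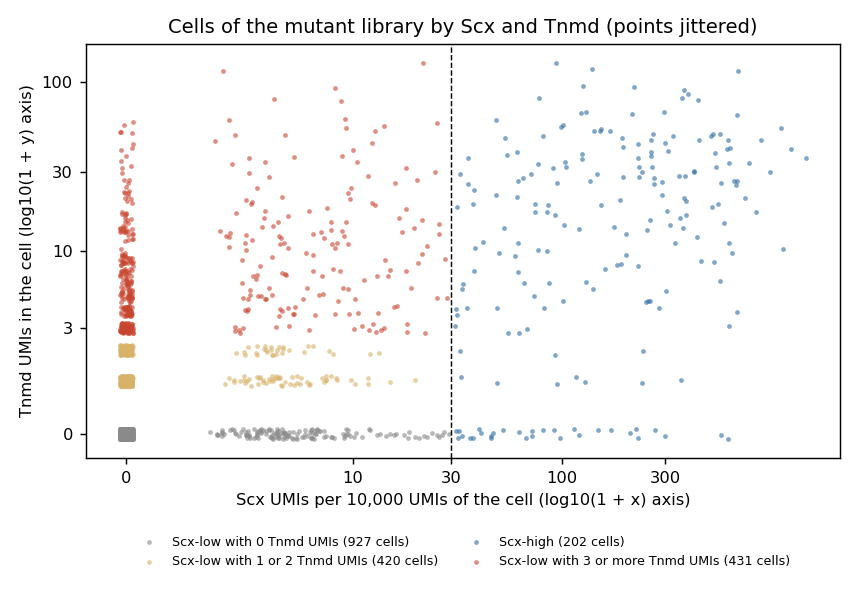
Each point is 1 cell of the mutant library within the limits, by Scx UMIs per 10000 UMIs (x axis, log10 of 1 plus the value) and Tnmd UMIs (y axis, same scaling), with a small random shift and a dashed line at the Scx limit of 30. The 431 cells described here are red, 268 of them at 0 on the Scx axis, the Tnmd-negative cells grey, those with 1 or 2 Tnmd UMIs yellow and the Scx-high cells blue.

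At the lower Tnmd limit, the cells just inside had more Fmod than those just outside, while the other genes measured there went in both directions. The 95 Scx-low cells with exactly 3 Tnmd UMIs had 322 CPM of Fmod and 3293 of Dlk1, and the 162 cells with exactly 2 had 150 and 3407. In the same order, Kera stood at 860 and 919 CPM, Col1a1 at 11806 and 11479 and Ptn at 5332 and 6688. Scx stood at 220 and 93.4 CPM and Aspn at 598 and 502. Of cells with 3 or more Tnmd UMIs, 15 stood between 20 and 30 Scx UMIs per 10000 and 17 between 30 and 50. These had 2180 and 2236 CPM of Fmod, and 95.6 and 579 of Dlk1.

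The label of these cells rests on Tnmd, Col1a1, Aspn and Ptn, of which Tnmd was fixed by the rule and says nothing of the label. The other 3 genes were detected in them. Col1a1, the major chain of type I collagen, had at least 1 UMI in 100% of the cells, and Ptn, the secreted growth factor pleiotrophin, in 96.1%. In the immune-rich cells, used above as a measure of free RNA, these shares were 25.4% and 18.9%. Aspn, the proteoglycan asporin, did not set the cells apart, with 757 CPM against 838 in the Scx-high cells and 667 in the Tnmd-negative cells. Besides Scx and Tnmd, which the rule used, the other 6 tenocyte markers were detected, among them Mkx, a tendon homeobox factor, at 45.7 CPM against 80.4 in the Scx-high and 7.37 in the Tnmd-negative cells. The 8 fibroblast markers were present as well, at a summed 5376 CPM led by Lum, against 2557 in the Scx-high and 6411 in the Tnmd-negative cells.

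Defining markers of endothelial, immune, muscle, osteoblast and epithelial cells were at or near 0. The 6 endothelial markers summed to 10 UMIs over the 431 cells, with Cdh5, Emcn and Tie1 at 0, and Egfl7 most abundant at 5 UMIs. The 7 immune markers summed to 31 UMIs with Ptprc at 0, the 6 muscle markers to 13 with Myod1, Pax7 and Myf5 at 0, and the 6 osteoblast markers to 2. The rule itself limited haemoglobin RNA and the immune genes Tyrobp, Fcer1g, Laptm5 and Ptprc. Low counts of these were thus largely fixed by it and say nothing of the label. Schwann cell markers gave 138 UMIs, of which S100b gave 88, and Sox10 and Cdh19 were at 0. No epithelial marker UMI was found. Of the 6 mural markers, Acta2 gave 899 of 1031 UMIs, and 15 cells held 5 or more. Chondrocyte markers gave 350 UMIs, led by Acan with 122, and 15 cells held 5 or more, and haemoglobin and other red blood markers gave 350 UMIs with 7 such cells. By contrast, 143 of the 927 Tnmd-negative cells (15.4%) and 11 of the 202 Scx-high cells (5.45%) carried 5 or more UMIs of endothelial, mural (without Acta2 and Pdgfrb), Schwann, muscle or adipocyte markers, compared with 8 of the 431 (1.86%).

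The targeted gene, Tgfbr2, stood at 60.7 CPM in the Scx-low Tnmd-positive cells, at 46.6 in the Scx-high and 67.9 in the Tnmd-negative cells of the same library, and at 30.02 in the Scx-high cells of the control library. The ratio to the mutant Scx-high cells was 1.30 with an interval of 0.886 to 1.94, which includes 1. These libraries count the 3′ end of transcripts, and whether that end lies in the deleted part is not given in the sources used here, so the level is no check of the deletion.

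The Scx-low Tnmd-positive cells had higher levels of tendon matrix transcripts than the Tnmd-negative cells. Fmod, which encodes the collagen-binding proteoglycan fibromodulin, stood at 851 CPM against 168, a 5.05-fold difference (4.53 to 5.65). Kera, which encodes keratocan of the same proteoglycan family, stood at 1243 against 240, or 5.18-fold higher (4.73 to 5.69). Col11a1, a minor fibrillar collagen, stood at 295 against 52.0 CPM (5.67-fold). Col1a1 stood at 17736 against 7372 CPM (2.41-fold, 2.36 to 2.45), and Col1a2, the partner chain, at 11242 against 4942 (2.27-fold). Col1a1 was found in 90.5% and Col1a2 in 90.3% of the Tnmd-negative cells as well. In the 431 cells both chains were nearer to the levels of the Scx-high cells, at 21516 and 12660 CPM.

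The sequences that precede the gene starts of Tnmd, Kera and Fmod are shown because these tendon genes were found in cells with little or no Scx RNA. Scleraxis, like other factors of its class, is known to bind E-boxes, spelled CANNTG and the same on both strands. Each sequence is the 250 bases before the gene start on the plus strand of build GRCm38.p6 (RefSeq), at chrX:133850758-133851007 for Tnmd, chr10:97606955-97607204 for Kera and chr1:134037004-134037253 for Fmod, with matches in capitals.
Tnmd: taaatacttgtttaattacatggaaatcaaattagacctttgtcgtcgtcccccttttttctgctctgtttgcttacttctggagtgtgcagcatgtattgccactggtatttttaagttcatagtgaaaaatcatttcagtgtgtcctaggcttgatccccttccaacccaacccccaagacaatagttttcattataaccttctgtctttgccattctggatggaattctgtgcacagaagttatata
Kera: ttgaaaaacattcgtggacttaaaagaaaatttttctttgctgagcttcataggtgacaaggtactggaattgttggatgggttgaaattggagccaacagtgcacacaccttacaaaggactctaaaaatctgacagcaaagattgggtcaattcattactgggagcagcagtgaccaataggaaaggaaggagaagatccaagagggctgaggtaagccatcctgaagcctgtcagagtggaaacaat
Fmod: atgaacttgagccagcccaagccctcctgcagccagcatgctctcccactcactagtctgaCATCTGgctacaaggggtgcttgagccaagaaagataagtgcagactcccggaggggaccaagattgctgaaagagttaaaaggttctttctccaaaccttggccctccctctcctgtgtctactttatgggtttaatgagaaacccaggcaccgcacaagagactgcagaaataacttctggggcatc
A match to CANNTG occurred once in the Fmod window, as CATCTG, and these letters are not in the Tnmd and Kera windows. Of all 32851 windows of this length in the table, 66.2% held at least 1 match, so the presence of these letters is common.

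A floor on low values kept 1059 genes whose mean in either group reached 0.5 UMI a cell. Of these, 27 were at least 2-fold higher in the Scx-low Tnmd-positive than in the Tnmd-negative cells (2.55% of the genes) and 21 at least 2-fold lower (1.98%). The median log2 ratio over these genes was -0.03. Of the tendon matrix and tenocyte list, 21 of 31 genes reached the floor, and 16 of the 21 passed 2-fold. The floor bears on this count, since 8 of the 21 reached it only through the Scx-low Tnmd-positive cells, and of the 13 that reached it in the Tnmd-negative cells 8 passed 2-fold. The list's median log2 ratio was 1.19. After removal of cells with 5 or more UMIs of other cell types' markers from all groups, an alternative added after the data were seen, 10 of 21 passed 2-fold, and Col1a2, Thbs4, Pdgfrl, Itgbl1, C1qtnf3 and Clec11a no longer did. With all cells in, the 16 included Cpxm2 (4.03-fold), Abi3bp (2.79-fold), Cpz (2.55-fold), Thbs4 (2.29-fold) and 1500015O10Rik (4.17-fold), which RefSeq names Ecrg4. Thbs4 encodes thrombospondin 4, a matrix protein of tendon, and Cpz encodes a carboxypeptidase that binds Wnt proteins. The list was drawn up with earlier results of these data known, so its counts are not independent evidence.

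Other matrix groups leaned the same way but mostly by less than 2-fold. Of the fibrillar and associated collagens, 12 of 15 genes lay above 1, with Col12a1 (2.44-fold) among the 5 past 2-fold. Of the 15 genes 3, Col12a1 among them, reached the floor only through the Scx-low Tnmd-positive cells. Of the 12 at the floor in the Tnmd-negative cells, 9 lay above 1 and 2 passed 2-fold. Col4a1 and Col4a2 of basement membranes were at least 2-fold lower, and both reached the floor only through the Tnmd-negative cells. Collagen processing and crosslinking genes lay above 1 in 13 of 14 cases with none past 2-fold (median log2 ratio 0.38), but 6 of the 14 reached the floor only through the Scx-low Tnmd-positive cells. Of all 1059 genes, 472 lay above 1. Endoplasmic reticulum and secretion genes lay above 1 in 23 of 27 cases (0.13), and in 18 of 27 without cells of other types. The small leucine-rich proteoglycans had a median log2 ratio of 0.79, with Fmod, Kera and Ogn past 2-fold. Of the 7 at the floor, 2 reached it only through the Scx-low Tnmd-positive cells, and of the other 5 only 1 passed 2-fold. After the same removal Ogn, Col16a1, Col4a1 and Col4a2 lost their calls. Prph, which encodes the neuronal intermediate filament peripherin, had the largest ratio at the floor apart from Tnmd, at 199 against 13.6 CPM (14.6-fold, 10.3 to 21.4), and it reached the floor in the Scx-low Tnmd-positive cells and not in the Tnmd-negative cells.

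Among the 21 lower genes were markers of other cell types. Cfd and Fabp4 of adipocytes, Acta1, Mylpf and Myog of skeletal muscle, Mbp of Schwann cells and Rgs5 of pericytes were among the lowest ratios, and cells with such markers were more frequent in the Tnmd-negative group, as given above. After removal of cells with 5 or more UMIs of such markers, 15 of the 27 higher genes kept their call. Of the 21 lower genes 3 kept it, Tppp3, Serpine2 and Gsn, and 6 others came to be at least 2-fold lower, Osr1, Ecm1, Col8a1, Lsp1, Acta2 and Tmem100. Tppp3, a tendon sheath marker, stood at 64.7 against 396 CPM (6.12-fold lower, 4.96 to 7.63) and was 6.20-fold lower after that removal. Serpine2, a secreted protease inhibitor, stood at 167 against 667 CPM (3.99-fold lower), and Gsn, the actin-severing protein gelsolin, at 677 against 1458 (2.15-fold lower).

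Against the Scx-high cells of the same library, 21 of 25 fibroblast and progenitor genes at the floor were at least 2-fold higher in the Scx-low Tnmd-positive cells. Of 10 imprinted growth genes 4 were at least 2-fold higher (Dlk1, H19, Igf2 and Ndn). Above a ratio of 1 lay 23 of the 25 and all 10, against 565 of all 1317 genes. Of the imprinted genes 8 reached the floor in the Scx-high cells, and 3 of these passed 2-fold. Dlk1, an imprinted gene that encodes a Notch-like membrane protein of immature cells, stood at 1837 CPM against 182 (10.1-fold higher, 8.60 to 11.95). H19, an imprinted noncoding RNA, stood at 1920 against 246 (7.81-fold). Igf2, the fetal insulin-like growth factor from the same imprinted region, stood at 670 against 142 (4.71-fold). None of these 3 genes was higher than in the Tnmd-negative cells, where Dlk1 stood at 2202, H19 at 2348 and Igf2 at 722 CPM. Ly6a, which encodes the progenitor surface antigen Sca-1, stood at 578 CPM against 76.9 in the Scx-high and 684 in the Tnmd-negative cells. Cd34, a sialomucin of progenitors and stromal fibroblasts, stood at 380 CPM against 95.6 and 541.

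Against the Scx-high cells 1317 genes reached the floor, of which 73 passed 2-fold upward (5.54%) and 75 downward (5.69%). Their median log2 ratio was -0.06. The fibroblast and progenitor list had a median log2 ratio of 1.91, and Thy1 was at least 2-fold lower. Of its 25 genes 9 reached the floor only through the Scx-low Tnmd-positive cells, and of the 16 that reached it in the Scx-high cells 12 passed 2-fold. Against the Tnmd-negative cells 1 of 24 genes of that list passed 2-fold upward, Spon2, and 2 downward, with a median of -0.09. Without cells of other types Spon2 lost its call. The highest ratios to the Scx-high cells were those of Penk, the enkephalin precursor (209 against 19.8 CPM, 10.5-fold), and Dlk1. They were followed by Crabp1, a retinoic acid binding protein (9.36-fold), Mgst1, a glutathione transferase (8.30-fold), and the chemokine gene Cxcl14 (8.09-fold). Ptn was 4.90-fold higher (5760 against 1175 CPM).

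Part of the tendon matrix and TGFβ-responsive lists was lower than in the Scx-high cells. In the tendon matrix list 10 of 27 genes passed 2-fold downward and Cpz upward (median log2 ratio -0.89). Of the 27 genes 6 reached the floor only through the Scx-high cells, and of the 21 that reached it in the Scx-low Tnmd-positive cells 4 passed 2-fold downward. Fmod was 2.99-fold lower (2545 CPM in the Scx-high cells) and Col11a2 6.78-fold lower. Chad, the cartilage and tendon protein chondroadherin, stood at 42.3 against 300 CPM (7.09-fold lower). Of 15 TGFβ-responsive genes at the floor, 6 were at least 2-fold lower (3 of the 12 that reached the floor in the Scx-low Tnmd-positive cells), among them Pmepa1 (4.2-fold), a target and inhibitor of TGFβ signaling, and Fn1, fibronectin (2.32-fold). Junb and Id3 of that list were at least 2-fold higher. Against the Scx-high cells of the control library the list did not lean downward, as given below. Of 19 collagen processing and crosslinking genes at the floor, 3 passed 2-fold downward. Among them were Lox (2.15-fold) and Loxl2 (2.62-fold), which crosslink collagen. Of the 14 that reached the floor in the Scx-low Tnmd-positive cells only 1 passed 2-fold downward. Secretion genes lay below a ratio of 1 in 29 of 30 cases with none past 2-fold (median log2 ratio -0.38), as did 752 of all 1317 genes. Myog and Actc1 had the lowest ratios of all and are muscle genes, and 8 of the 202 Scx-high cells carried 5 or more UMIs of muscle markers. Of 17 dissociation and immediate early genes 5 passed 2-fold upward and 5 lay below a ratio of 1, with Fos at 1877 against 760 CPM (2.47-fold) and Junb 2.16-fold higher, and their part in the other differences was not tested.

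**Figure D2:**
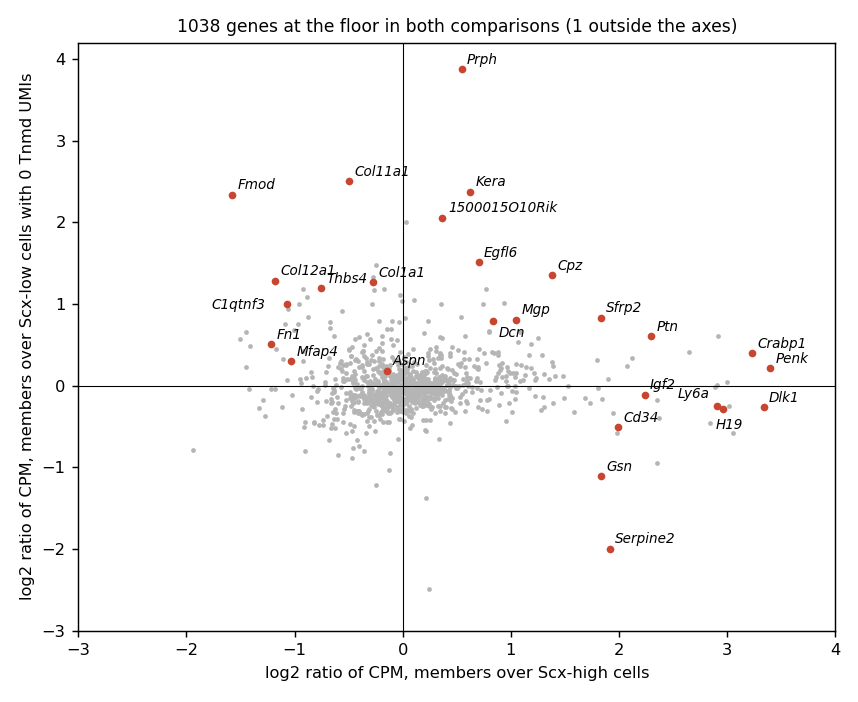
Each point is 1 of 1038 genes at the floor in both comparisons, by its log2 ratio of CPM in the Scx-low Tnmd-positive cells over the Scx-high cells (x axis) and over the Tnmd-negative Scx-low cells (y axis), and members on the axes are the 431 cells. Fmod and Col12a1 lie at the upper left, between the levels of the 2 groups, Kera, Ptn and Mgp lie above both, and Dlk1 and Ly6a lie at the far right near a y value of 0.

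In 15 of 1038 genes (1.45%) the level was at least 1.5-fold above both other groups, and 3 of the 15 reached the floor in neither of them. Dcn, the collagen-binding proteoglycan decorin, stood at 11730 CPM against 6567 in the Scx-high and 6765 in the Tnmd-negative cells. Mgp, matrix Gla protein, an inhibitor of calcification, stood at 4199 against 2027 and 2401. Sfrp2, a secreted Wnt modulator, stood at 476 against 134 and 267. Ptn was 1.52-fold above the Tnmd-negative cells (5760 against 3788 CPM) and Kera 1.54-fold above the Scx-high cells (805 CPM). The remaining genes were Cpz, Aqp1, Spon2, Igfbp2, Egfl6, Cpq, Tcea3, Angptl1, Srpx and S100a4. Without cells of other types the count was 8. The levels were not particular to these cells, since only 4 of the 15 genes (Aqp1, Spon2, Igfbp2 and Kera) were 1.5-fold above the Scx-low cells with 1 or 2 Tnmd UMIs as well. Ptn stood there at 6096, Sfrp2 at 507 and Mgp at 3811 CPM.

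To compare shares of cells at equal depth, 1443 UMIs were drawn from each cell. Shallower cells were dropped, namely 20 of the 431 cells, 16 of the Scx-high and 119 of the Tnmd-negative cells. Kera was found in 53.3% of the Scx-low Tnmd-positive cells (48.3 to 58.2), 40.3% of the Scx-high and 15.97% of the Tnmd-negative cells. Fmod was found in 41.4%, 78.0% and 10.4%, and Dlk1 in 39.4%, 13.4% and 52.5%. In the immune-rich cells, which should lack these genes, the shares were 1.79% for Kera, 2.68% for Fmod and 12.5% for Dlk1, and in the haemoglobin-rich cells the Dlk1 share was 1.39%. The Dlk1 share of the Scx-high cells was thus close to that of 1 background group and above that of the other. Without thinning, Kera was found in 61.5%, Fmod in 53.6% and Dlk1 in 50.6% of the 431 cells.

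The 431 cells were not uniform, and many of their levels differed with how much Tnmd they held. By Tnmd UMIs, 194 cells had 3 to 5, 106 had 6 to 11 and 131 had 12 or more, with median depths of 3048.5, 3119 and 3781 UMIs. From the lowest to the highest Tnmd class, Dlk1 stood at 3102, 2008 and 267 CPM, and it stood at 182 in the Scx-high cells. Cells rich in Tnmd were thus poor in Dlk1, and cells with 3 to 5 Tnmd UMIs had as much Dlk1 as those with 1 or 2 (3117 CPM). Fmod ran the other way, at 310, 639 and 1614 CPM. H19 stood at 2601, 2385 and 833 CPM, and Cxcl14 at 1025, 533 and 162.

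Within the 431 cells 1025 genes reached a mean of 0.5 UMI, of which 26 were at least 2-fold higher in the cells with 12 or more Tnmd UMIs than in those with 3 to 5 (2.54%), and 35 at least 2-fold lower (3.41%). The higher genes were led by Fmod (5.21-fold, 4.44 to 6.14), Rbp4, a retinol carrier (4.91-fold), and Igfbp6, an insulin-like growth factor binding protein (4.83-fold). The microfibril gene Mfap4 (3.51-fold), Abi3bp (3.43-fold), Col12a1 (3.38-fold) and Cthrc1, a collagen-related secreted protein (3.21-fold), followed. The lower genes were led by the neutrophil chemokine Cxcl1 (268 against 9.55 CPM, 28.1-fold lower), Dlk1 (11.6-fold, 9.77 to 13.9) and Cygb, cytoglobin (7.32-fold). Cxcl14 (6.31-fold), Mgst1 (5.42-fold), Apod (4.70-fold) and Itm2a (4.02-fold) followed. Dlk1 was found in 50.5% of the cells with 3 to 5 Tnmd UMIs and in 19.2% of those with 12 or more after thinning, and Fmod in 21.7% and 73.6%, so the shares of cells moved the same way as the levels. A split by Scx gave the same directions, with Dlk1 at 2659 CPM in the 268 cells with 0 Scx UMIs and 631 in the others, and Fmod at 489 and 1383.

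Some genes kept a high level in all 3 Tnmd classes. Ptn stood at 6273, 7041 and 4339 CPM from the lowest to the highest class, each above the 1175 of the Scx-high cells, and at 6096 in the cells with 1 or 2 Tnmd UMIs. Mgp stood at 4427, 4208 and 3930 CPM. Dcn stood at 10643, 11434 and 13176 CPM against 6567 in the Scx-high cells. Lum, the proteoglycan lumican of fibroblasts, stood at 2482, 2527 and 1969 CPM against 717 in the Scx-high cells. It stood at 3009 CPM in the cells with 1 or 2 Tnmd UMIs and at 2554 in the Tnmd-negative cells, so no class was above the Tnmd-negative level. In the cells with 12 or more Tnmd UMIs, Col1a1 (22649 CPM) and Col12a1 (745) had come close to the Scx-high levels of 21516 and 951, while Fmod (1614 against 2545), Col11a2 (85.9 against 259) and Acan (115 against 324), the cartilage proteoglycan aggrecan, had not.

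**Figure D3:**
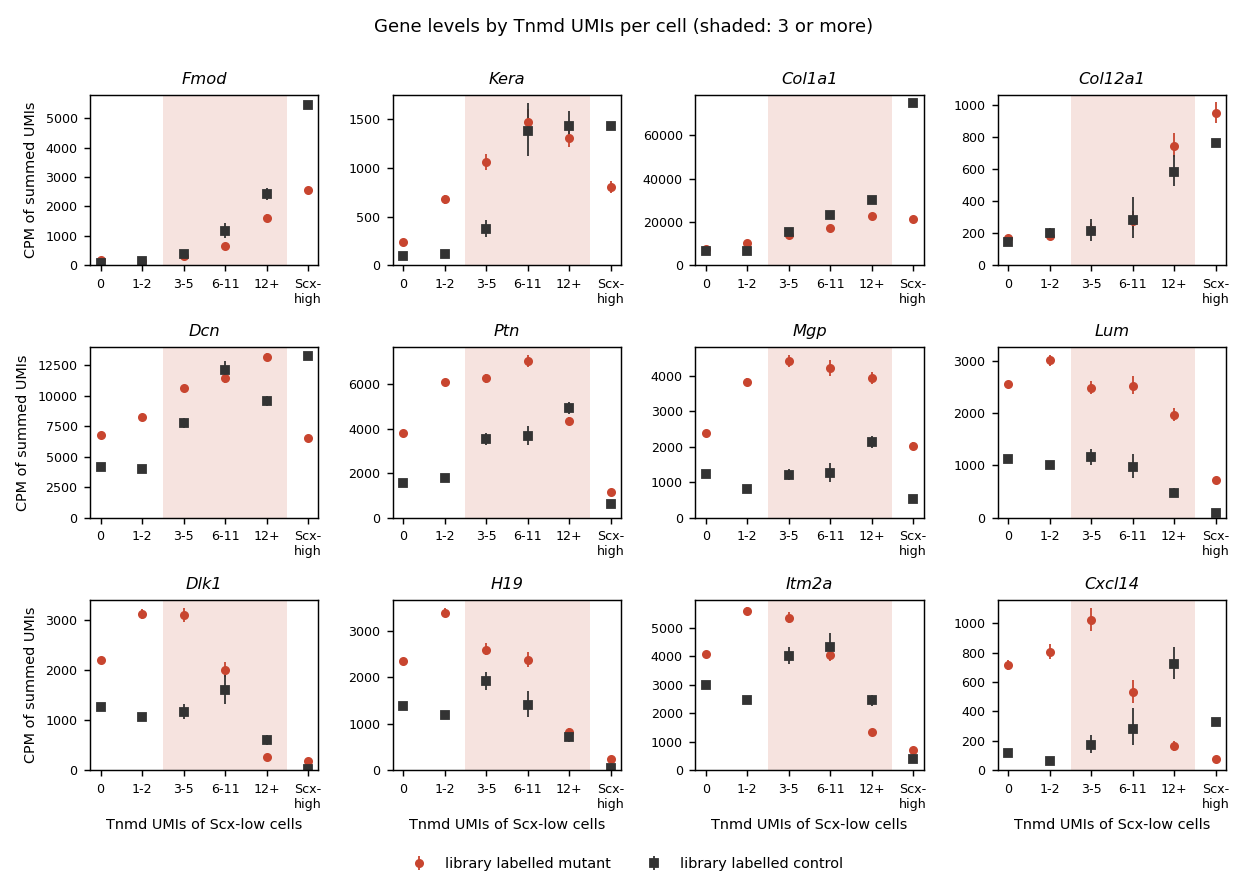
CPM of 12 genes (y axes, from 0) in Scx-low cells by Tnmd UMIs per cell and in Scx-high cells (x axes), for the library labelled mutant (red circles) and the library labelled control (black squares), with exact Poisson 95% intervals. Shading marks cells with 3 or more Tnmd UMIs, and within it Fmod of the mutant library climbs from 310 to 1614 CPM while Dlk1 falls from 3102 to 267.

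Where the cells lay between the 2 other groups was measured over genes that themselves differed at least 2-fold between Scx-high and Tnmd-negative Scx-low cells, of which 102 of 1309 were higher (7.79%) and 77 lower (5.88%) in the Scx-high cells. On a log2 scale from 0, the Tnmd-negative level, to 1, the Scx-high level, the 431 cells had a median position of 0.30 over the 102 genes and of 0.14 over the 76 of the 77 genes that had a ratio. By Tnmd class, the median over the genes higher in Scx-high cells was 0.08, 0.17 and 0.58, and over the genes lower in Scx-high cells -0.01, 0.10 and 0.52. The cells with 3 to 5 Tnmd UMIs thus lay at the Tnmd-negative end, and only the class with 12 or more lay past the middle. Without cells of other types the same medians were 0.03, 0.10 and 0.52, and -0.04, 0.07 and 0.49.

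**Figure D4:**
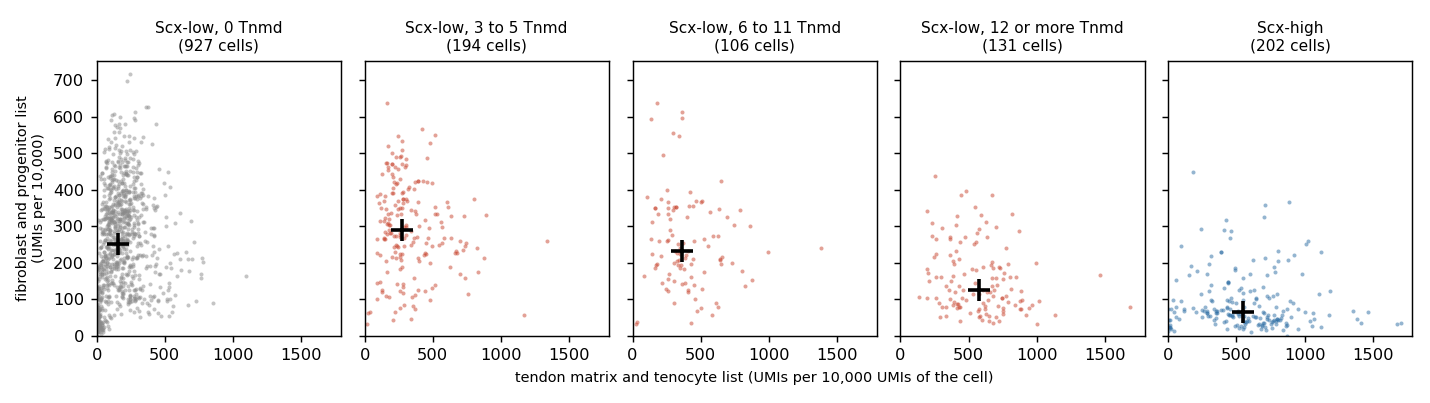
Each point is 1 cell of the mutant library, by UMIs of the tendon matrix and tenocyte list (x axis) and of the fibroblast and progenitor list (y axis), both per 10000 UMIs of the cell, and crosses are group medians. The medians on the tendon axis are 157, 276, 360, 577 and 547 in the panels from 0 Tnmd UMIs to Scx-high, and those on the fibroblast axis, in the same panel order, are 251, 289, 231, 126 and 64.8.

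Within each class the 2 lists varied widely from cell to cell. The fibroblast and progenitor list took a median of 289 UMIs per 10000 in the cells with 3 to 5 Tnmd UMIs (10th to 90th percentile 121 to 467) and 126 in those with 12 or more (56.4 to 295). The tendon matrix list took 276 (142 to 630) and 577 (262 to 876). After thinning, 22.1% of the 431 cells held Kera together with Cd34 (18.2 to 26.5), against 5.38% of the Scx-high and 8.17% of the Tnmd-negative cells. Cd34 alone was found in 38.2% of the 431 cells and in 4.46% of the immune-rich cells, and whether the 2 genes occurred together more often than their separate shares give was not tested. Fmod and Dlk1 were found together in 9.49% of them, 6.99% of the Scx-high and 4.58% of the Tnmd-negative cells, with overlapping intervals for the first 2 groups (6.83 to 12.7 and 3.77 to 11.7). A doublet caller marked 8 of the 2592 barcodes and none of the 431, too few for the caller to be taken as a measure of doublets.

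Cells that met the same rule existed in the control library, as 153 of 2364 cells (6.47%, 5.51 to 7.54). There 1101 cells were Scx-high and 309 were Tnmd-negative, and 29 of the 153 (18.95%) had 0 Scx UMIs, compared with 62.2% in the mutant library. This contrast was not particular to these cells. In the Tnmd-negative cells the share was 40.8% in the control and 85.1% in the mutant library. In cells with 1 or 2 Tnmd UMIs it was 32.4% and 80%. No measure of free RNA is given here for the control library. Their median Tnmd count was 12, compared with 6. Mural markers summed to 3971 CPM in the 153 cells and to 703 in the 431, with Acta2 most abundant in both (1818 and 899 UMIs), and their part in the library difference was not tested.

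The same rule was applied to the control library, whose cells did not choose the 431. Fmod stood at 1476 CPM in the 153 control cells against 88.9 in the control Tnmd-negative cells, and Kera at 1027 against 94.5. Of 1230 genes there, 60 were at least 2-fold higher (4.88%) and 68 lower (5.53%). Of the 27 genes at least 2-fold higher in the mutant library, 23 were so in the control library, which is 85.2% of the mutant list and 38.3% of the control list. The overlap was counted with all cells in and under the same Tnmd rule, so it is not independent support. Cells with 5 or more UMIs of other types' markers were 143 of the 927 mutant and 75 of the 309 control Tnmd-negative cells (15.4% and 24.3%). Without such cells 15 of the 27 genes kept their call in the mutant library. By Tnmd class, Fmod climbed in the 153 control cells as well, at 386, 1156 and 2412 CPM in 52, 24 and 77 cells. Cxcl14 did not run alike in the libraries, at 170, 279 and 726 CPM in those classes against 1025, 533 and 162 in the mutant library. Across 972 genes at the floor in both, Spearman's rho of the log2 ratios was 0.57, as a description over genes, which are not independent. Of the fibroblast list, 9 of 25 genes passed 2-fold downward and 3 upward there, and 2 of 24 downward and 1 upward in the mutant library, with Ly6a at 293 against 801 CPM in the control cells and at 578 against 684 in the mutant cells, and the difference was not tested.

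Set beside the Scx-high cells of the control library, the 431 cells had less tendon matrix and more fibroblast RNA. Of 1196 genes, 172 passed 2-fold upward (14.4%) and 95 downward (7.94%), around a median log2 ratio of 0.18. Col1a1 stood at 17736 against 75067 CPM (4.23-fold lower), Fmod at 851 against 5454 (6.41-fold lower) and Col11a2 at 38.2 against 1929 (50.5-fold lower). Kera (1243 against 1433 CPM), Thbs4 (1065 against 1153) and Dcn (11730 against 13225) differed by much less. Dlk1 stood at 1837 against 22.2 CPM (82.6-fold higher), Aspn at 757 against 38.9 (19.5-fold) and Ptn at 5760 against 601 (9.59-fold). In the tendon matrix list 24 of 31 genes passed 2-fold downward, and in the fibroblast and progenitor list 22 of 25 upward and Thy1 downward. In the TGFβ-responsive list 6 of 15 genes passed 2-fold upward (Tagln, Postn, Eln, Fn1, Id3 and Junb) and 3 downward (Tpm1, Cnn2 and Wisp1), with a median log2 ratio of 0.02. Fn1 and Tagln were thus lower than in the Scx-high cells of the mutant library and higher than in those of the control library. These counts include genes that reached the floor only through the group where they were high. Col11a2 did so through the control cells and Dlk1 through the 431 cells. The counts are given without a split by floor, so no conclusion is drawn from their size.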

How the data were processed

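The authors counted UMIs with Cell Ranger against mm10. The submitters' processing notes give version 1.2.0, and the study's methods give a later one. The deposited values are raw UMI counts of 27998 genes per cell barcode. Counts were summed over the cells of a group, scaled to CPM and set as ratios with exact conditional binomial 95% intervals. No test was made, because each genotype had 1 library and the groups were defined by measured values. The cells and gene lists were chosen with earlier results of these data known. The floor was a mean of 0.5 UMI per cell in either group. Named genes were the 12 highest and 12 lowest ratios of each comparison without rule genes and pseudogenes, the genes 1.5-fold over both groups, the fixed markers, leading list genes and Tgfbr2, and 1 gene of these is not reported here. Shares were also taken after thinning each cell to 1443 UMIs (seed 1). Doublets were called with Scrublet in Scanpy 1.11.5 and removed only in an alternative. SciPy 1.17.1 gave the intervals, and the ratios were checked on simulated counts. Alternatives varied the Scx and Tnmd limits, depth, floor, scaling and cell filters.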

Additional observations from a re-analysis of the deposited data

How the results depend on the processing

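The number of Scx-low Tnmd-positive cells was 268 with 0 Scx UMIs required and 278 with at least 5 Tnmd UMIs. Thinning to 2000 UMIs before the rule, which left 700 and 674 genes at the floor against 1317 and 1059, gave 8 genes 1.5-fold above both groups, 45 higher and 36 lower than in the Scx-high cells, and 11 lower than in the Tnmd-negative cells. Cells of 2000 to 6000 UMIs gave 7 genes above both and 49 lower than in the Scx-high cells. A floor of 0.1 UMI, at which 4824 genes were compared with the Scx-high and 4263 with the Tnmd-negative cells, gave 42 genes above both, 284 higher and 289 lower than in the Scx-high cells, and 59 higher and 124 lower than in the Tnmd-negative cells, and a floor of 1 UMI (700 and 528 genes) gave 9, 39 and 42, and 8 lower than in the Tnmd-negative cells. Comparison groups without the limits gave 33 genes above both and 34 lower than in the Tnmd-negative cells. With 0 Scx UMIs, 16 genes were higher than in the Tnmd-negative cells. Without cells of other types, added after the data were seen, 8 genes were above both and 15 higher and 9 lower than in the Tnmd-negative cells. Of 1140 values of single genes under the alternatives, 1105 kept their sign and 340 moved beyond the counting interval, and of 570 list medians 525 kept their sign and 48 moved by over 0.2. The cause of these changes was not tested. No paired analysis was possible because each genotype had 1 library. Depth limits genes below the floor, and with 1 library per genotype no value carries a replicate error.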
